A study of Mus musculus with 8 samples.

Results

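The genes described here encode the subunits of NF-kB and the kinases that activate it, 9 genes in all: the subunits Rel, Rela, Relb, Nfkb1 and Nfkb2, the kinases Map3k14, Chuk and Ikbkb, and the kinase scaffold Ikbkg. A member was measured by every probe set whose only gene symbol in the platform's annotation is its own. This gave 18 probe sets for 7 genes, out of 18193 genes named in the same way. Nfkb1 and Chuk have no probe set of that kind in the annotation used here and were not analysed here. The RNA came from germinal centre B cells sorted from lymph nodes of C57BL/6 mice 12 days after subcutaneous immunization with NP-KLH, a hapten on a carrier protein, in alum. The compared groups were light zone cells and dark zone cells, with 4 arrays each from samples labelled as biological replicates, and both groups shared the strain, the immunization and a gate of B220 positive, CD38 negative and CD95 positive cells. The labels used here do not say whether a sample is 1 mouse or a pool, so p-values measure the spread between these samples. Values are RMA intensities, a background-corrected and quantile-normalized probe set brightness on a linear scale, and every difference below is light zone minus dark zone in log2 intensity.

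NF-kB factors are dimers of proteins that share the Rel homology domain. In the canonical pathway, receptors such as the B cell receptor, Toll-like receptors and CD40 activate a kinase complex of IKKalpha, IKKbeta and the scaffold NEMO, which marks IkB inhibitors for degradation and releases dimers that contain RelA or c-Rel with p50. In the noncanonical pathway, CD40, the BAFF receptor and the lymphotoxin beta receptor stabilize the kinase NIK, which acts through IKKalpha to have the p100 precursor cut to p52, the partner of RelB. Germinal centres are divided into a dark zone, where B cells divide and mutate their antibody genes, and a light zone, where they meet antigen and follicular helper T cells, which carry CD40 ligand.

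In the labels, light zone cells are CXCR4 high and CD83 low, the reverse of the usual definition, so groups were taken from the titles. Cd83 mRNA averaged 7381 ± 195 in arrays titled light zone and 1478 ± 111 in arrays titled dark zone (SD, n = 4 each). Cxcr4 averaged 804 ± 39.3 in light zone and 1571 ± 125 in dark zone arrays (SD, n = 4 each), so both gate genes followed the titles. Of 9 tested germinal centre B cell markers, 6 did not pass, and neither did 5918 of all 10547 tested genes. Gcsam (-1.48) and S1pr2 (-0.26) were lower in the light zone, and the gate gene Fas was higher (0.23). Among the 6 were Ms4a1, which encodes CD20, with a mean of 10429 in light zone and 10055 in dark zone arrays, and Bcl6, with 3112 in light zone and 3445 in dark zone arrays. The median intensity of an array lay between 27.3 and 28.1. No detection calls were used, and the level below which genes were not tested was 27.8.

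Promoter windows are shown for the measured members Rel, Nfkb2 and Rela because NF-kB dimers bind a 10-base element, the kappa B consensus, and these windows differ in whether they hold it. Each window runs from 250 bases before to 50 bases after an annotated start, read 5′ to 3′ along the gene, from RefSeq on build GRCm38.p6. Capitals mark matches to the kappa B consensus on either strand, and overlapping matches were merged.
Rel, chr11:23770920-23771219, minus strand: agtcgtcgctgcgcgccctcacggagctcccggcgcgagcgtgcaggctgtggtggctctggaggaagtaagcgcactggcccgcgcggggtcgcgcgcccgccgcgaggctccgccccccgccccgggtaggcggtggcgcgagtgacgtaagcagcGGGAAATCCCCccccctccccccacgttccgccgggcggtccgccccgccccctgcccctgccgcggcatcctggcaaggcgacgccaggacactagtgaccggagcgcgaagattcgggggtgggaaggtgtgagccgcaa
Nfkb2, first window, chr19:46304487-46304786, plus strand: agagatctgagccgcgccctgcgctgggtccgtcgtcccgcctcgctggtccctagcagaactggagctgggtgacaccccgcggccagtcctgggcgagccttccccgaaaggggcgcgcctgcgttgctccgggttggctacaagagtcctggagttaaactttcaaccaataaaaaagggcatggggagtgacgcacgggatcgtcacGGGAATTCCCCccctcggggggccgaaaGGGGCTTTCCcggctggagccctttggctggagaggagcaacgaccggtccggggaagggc
Nfkb2, second window, chr19:46305445-46305744, plus strand: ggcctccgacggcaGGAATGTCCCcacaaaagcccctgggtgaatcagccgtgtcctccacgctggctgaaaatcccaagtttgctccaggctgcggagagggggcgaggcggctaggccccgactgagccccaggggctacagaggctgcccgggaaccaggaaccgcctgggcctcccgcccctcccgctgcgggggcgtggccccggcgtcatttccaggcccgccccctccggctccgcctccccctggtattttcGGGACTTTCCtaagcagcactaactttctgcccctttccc
Rela, chr19:5637291-5637590, plus strand: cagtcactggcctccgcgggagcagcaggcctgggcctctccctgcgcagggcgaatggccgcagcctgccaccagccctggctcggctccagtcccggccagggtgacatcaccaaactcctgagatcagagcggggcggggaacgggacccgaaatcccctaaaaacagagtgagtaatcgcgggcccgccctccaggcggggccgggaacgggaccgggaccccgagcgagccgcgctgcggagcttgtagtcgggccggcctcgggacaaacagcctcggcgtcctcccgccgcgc

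The Rel window held 3 overlapping matches between 92 and 82 bases upstream of the start, read as GGGAAATCCC on the gene's strand and as GGGATTTCCC and GGGGATTTCC on the other. The first Nfkb2 window held 4, of which 3 overlap between 39 and 29 bases upstream around GGGAATTCCC, and the fourth, GGGGCTTTCC, lies 11 to 2 bases upstream. The second Nfkb2 window held 2 matches, GGGACATTCC on the other strand and GGGACTTTCC downstream of the start, and the last annotated window of Nfkb2 overlaps the downstream match. The windows of Rela, Map3k14, Ikbkg and Chuk held 0 matches, and Relb, Nfkb1 and Ikbkb are not matched to a window here. Of all 32851 windows of this length, 8.46% held a match. Among tested genes with a window, a match was present in 12.0% of 2127 genes higher in the light zone, 11.1% of 1679 genes lower in the light zone and 12.3% of 4766 genes that did not pass. A match describes letters in a window and is not a measured binding site.

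Of the 7 measured members, 6 were higher in the light zone and Ikbkg did not pass. All 7 were bright enough to be tested, each through its brightest probe set. Over the 10547 genes tested in the same fit, 43.9% passed a limma adjusted p of 0.05, with 24.8% higher in the light zone and 19.1% lower. The median difference of the 7 members was 0.47, against 0.01 over all tested genes. In 5 members the 4 light zone arrays lay above all 4 dark zone arrays, a separation in that direction shown by 23.2% of tested genes. These are levels of RNA in sorted cell populations, in which fewer cells of a type and less RNA per cell cannot be told apart, and they do not measure protein, processing of p100 or nuclear entry.

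**Figure D1:**
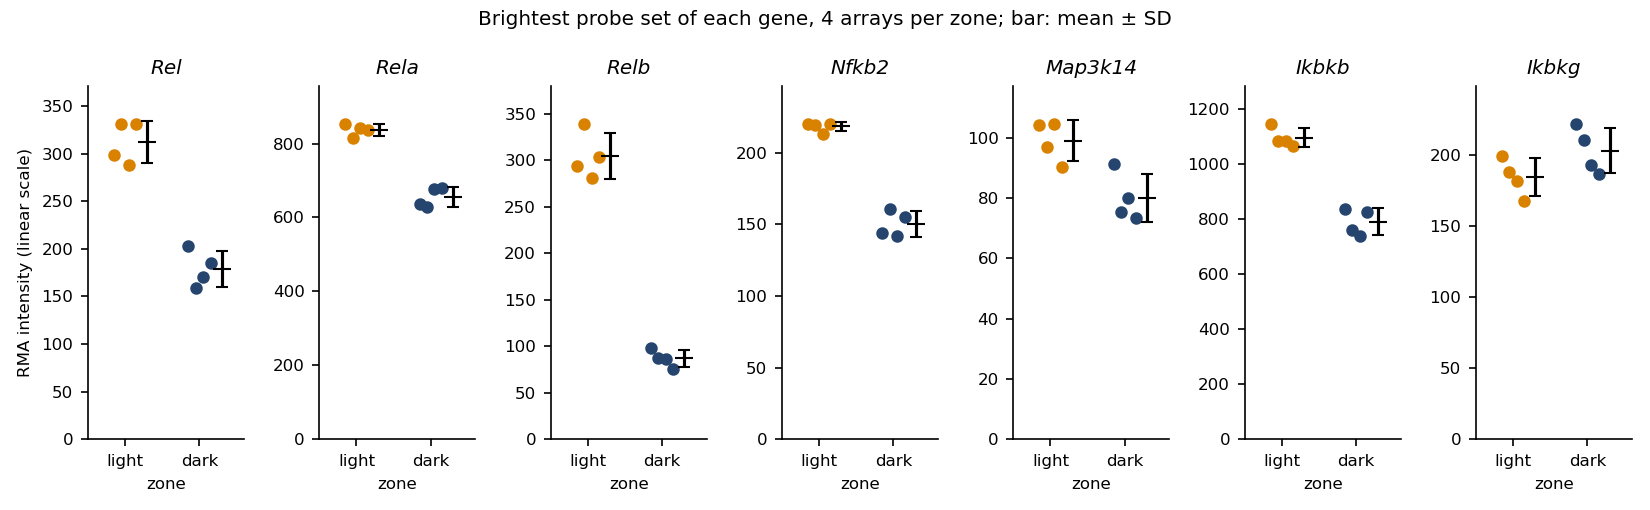
RMA intensity on a linear scale from 0, for the brightest probe set of each of the 7 measured members, in 4 light zone arrays (left, orange) and 4 dark zone arrays (right, blue), with the mean and SD of each zone as a bar. The zones do not overlap for Rel, Rela, Relb, Nfkb2 and Ikbkb, and they overlap for Map3k14 and Ikbkg.

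Both measured canonical subunits, Rel and Rela, were higher in the light zone. Rel (chr11:23736847-23770969) encodes c-Rel, a transactivating subunit with a prominent role in lymphocyte activation. Its intensity was 299, 331, 288 and 332 in the light zone arrays and 203, 159, 171 and 185 in the dark zone arrays. The lowest light zone array stood well above the highest dark zone array. The means were 312 ± 22.4 in light zone arrays and 179 ± 18.8 in the dark zone (SD, n = 4 each). The log2 difference was 0.80 (SE 0.08, limma adjusted p = 1.0e-05), or 1.75-fold.

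Rela (chr19:5637442-5648134) encodes p65, the transactivating subunit found in most cell types. It had 854, 816, 843 and 836 in the light zone arrays and 635, 629, 676 and 681 in the dark zone arrays. The arrays of each zone lay close together, so that a modest gap separated the zones without overlap. The means were 837 ± 15.97 in light zone arrays and 655 ± 26.8 in the dark zone (SD, n = 4 each), and the difference was 0.35 (SE 0.06, limma adjusted p = 3.2e-04), or 1.28-fold.

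Among the noncanonical members, Relb had the largest difference of the 7. Relb (chr7:19606217-19629438) encodes RelB, which pairs with p52 and is itself a transcriptional target of NF-kB. It had 294, 339, 281 and 303 in the light zone arrays and 98.6, 87.7, 85.7 and 75.2 in the dark zone arrays. Every light zone array was far above every dark zone array. The means were 304 ± 24.98 in light zone arrays and 86.8 ± 9.55 in the dark zone (SD, n = 4 each), a difference of 1.81 (SE 0.09, 95% interval 1.62 to 2.00, limma adjusted p = 1.7e-08), or 3.51-fold. It ranked 45 among the 10547 genes when these were ordered by how much higher they were in the light zone, against 349 for Rel and 1467 for Rela.

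Nfkb2 (chr19:46300994-46312400) encodes p100, the precursor of p52, which also acts as an inhibitor of NF-kB while uncut. Its brighter probe set, whose _x_at design may cross-hybridise, had 220.2, 219.8, 213 and 220.2 in the light zone arrays and 144, 160.4, 142 and 155 in the dark zone arrays. The zones were separate, with a difference of 0.54 (SE 0.06, limma adjusted p = 1.9e-05), or 1.45-fold. Its dimmer probe set, of another type, had 193, 194, 205 and 236 in the light zone arrays and 101, 85.4, 100.4 and 88.4 in the dark zone arrays. The zones were separate there too, with a difference of 1.14 (SE 0.08, limma adjusted p over all probe sets = 5.7e-07), or 2.21-fold. Both probe sets gave the same direction, and the size for Nfkb2 depended on which one was read.

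Map3k14 (chr11:103219764-103267401) encodes NIK, the kinase whose protein level switches the noncanonical pathway on. Its brighter probe set had 104, 97.0, 105 and 90.3 in the light zone arrays and 91.4, 75.3, 79.9 and 73.4 in the dark zone arrays. Light zone replicate 4 lay just below dark zone replicate 1, so the zones overlapped. The means were 99.0 ± 6.78 in light zone arrays and 80.0 ± 8.08 in the dark zone (SD, n = 4 each), with a difference of 0.31 (SE 0.08, limma adjusted p = 0.0080). The dimmer probe set of Map3k14 gave -0.03 (95% interval -0.25 to 0.18, limma adjusted p over all probe sets = 0.88). The mean of both probe sets gave 0.14, which did not pass (limma adjusted p = 0.16), so the call for Map3k14 rests on its brighter probe set.

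The kinase Ikbkb and the scaffold Ikbkg, which belong to the IKK complex, gave different calls, and the difference between them was not tested. Ikbkb (chr8:22659205-22706589) encodes IKKbeta, the kinase that phosphorylates IkB proteins in the canonical pathway. Its brightest probe set had 1147, 1086, 1086 and 1067 in the light zone arrays and 836, 763, 738 and 828 in the dark zone arrays. The zones were separate, and the difference was 0.47 (SE 0.06, limma adjusted p = 7.5e-05), or 1.39-fold. A second probe set of Ikbkb had 200.1, 188, 203 and 155 in the light zone arrays and 109.6, 90.1, 117 and 115 in the dark zone arrays, and rose by 0.79 (SE 0.10, limma adjusted p over all probe sets = 7.6e-05).

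The 3 dimmer probe sets of Ikbkb did not follow these 2. Their means were 38.4 to 85.9 in light zone arrays and 49.1 to 89.8 in dark zone arrays, nearer to the level of the filter. One gave -0.06 and did not pass, and the others gave -0.34 and -0.36 (limma adjusted p over all probe sets = 0.018 and 0.020). With all 5 probe sets averaged, Ikbkb was at 0.10 and did not pass (limma adjusted p = 0.20). The call for Ikbkb rests on its 2 brightest probe sets.

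Ikbkg (chrX:74393233-74456792) encodes NEMO, the scaffold that links the IKK kinases to ubiquitin chains. Its brightest probe set had 199, 188, 182 and 168 in the light zone arrays and 222, 210.0, 193 and 187 in the dark zone arrays. The zones overlapped, and the difference of -0.14 did not pass (95% interval -0.30 to 0.02, limma adjusted p = 0.16). Of its 6 probe sets, 5 had a negative difference and 1 was at 0.05. A single one passed, with 112, 88.4, 104 and 101 in the light zone arrays and 119.7, 121, 142 and 124 in the dark zone arrays, which differed by -0.32 (SE 0.08, limma adjusted p over all probe sets = 0.012). With its probe sets averaged, Ikbkg was lower in the light zone, at -0.19 (limma adjusted p = 0.018).

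Over all 18 member probe sets, 8 were higher in the light zone, 3 were lower and 7 did not pass. Of all 45037 probe sets in that fit, which has no filter on dim ones, 11.3% were higher and 10.5% were lower. The 8 include both probe sets of Nfkb2 and the only probe set of each of Rel, Rela and Relb. The 3 are 2 dim probe sets of Ikbkb and 1 of Ikbkg.

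**Figure D2:**
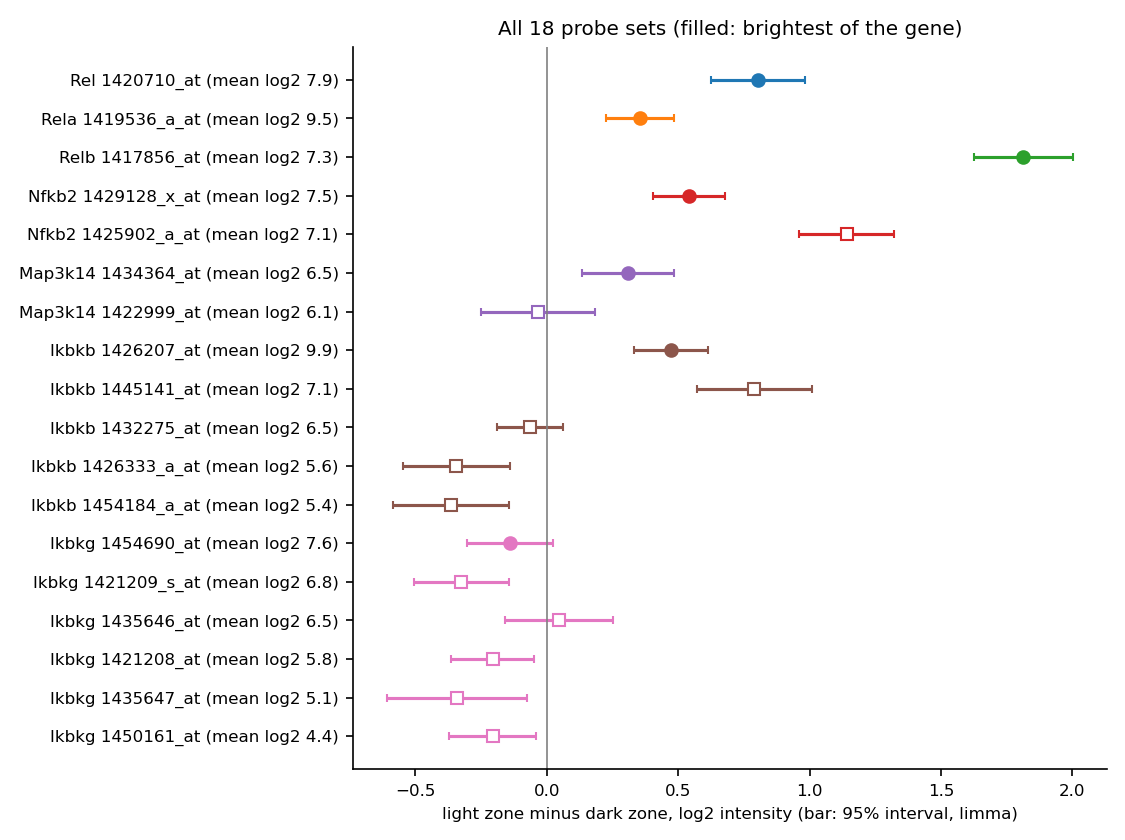
Difference between light zone and dark zone in log2 intensity for all 18 member probe sets, with 95% intervals from limma, grouped by gene and ordered by brightness within a gene. Filled circles are the brightest probe set of a gene and open squares the others. Relb lies furthest to the right at 1.81, both Nfkb2 probe sets are to the right of 0, and Ikbkb has probe sets on both sides of 0.

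Members of both arms were higher in the light zone. Both measured canonical members (Rel and Rela) and all 3 measured noncanonical members (Relb, Nfkb2 and Map3k14) passed, with differences of 0.80 and 0.35 in the first arm and of 1.81, 0.54 and 0.31 in the second. The median was 0.54 for the noncanonical arm and 0.58 for the canonical arm, and Nfkb1 and Chuk are missing from these values. The noncanonical median is the value of the brighter Nfkb2 probe set, and the dimmer Nfkb2 probe set gave 1.14. The order of the arms by median therefore depended on which Nfkb2 probe set was read. Whether single members changed unequally was tested through the ratio of a noncanonical to a canonical member within each array. Of the 12 pairs planned, 6 had both members measured.

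The ratio of Relb to either canonical subunit was higher in every light zone array than in any dark zone array. The log2 ratio of Relb to Rela, centred on its mean over the 8 arrays, was 0.65, 0.93, 0.61 and 0.73 in the light zone arrays and -0.50, -0.65, -0.79 and -0.99 in the dark zone arrays. The zones were far apart, with a difference of 1.46 in the ratio (95% interval 1.23 to 1.68 in a limma fit of the ratios). The ratio of Relb to Rel was 0.52, 0.58, 0.51 and 0.41 in the light zone arrays and -0.50, -0.32, -0.45 and -0.75 in the dark zone arrays, which gave a difference of 1.01 (95% interval 0.82 to 1.20).

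The ratio of Map3k14 to Rel was lower in every light zone array than in any dark zone array, with a difference of -0.49 (95% interval -0.70 to -0.28). The ratio of Map3k14 to Rela differed by -0.04 (95% interval -0.23 to 0.15), and its arrays overlapped. The ratio of Nfkb2 to Rela differed by 0.19 and that of Nfkb2 to Rel by -0.26, and arrays overlapped in both. With the other Nfkb2 probe set these 2 values were 0.79 and 0.34, so the sign of Nfkb2 relative to Rel depended on the probe set.

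The 3 pairs whose arrays did not overlap each had a two-sided exact permutation p of 0.0286, the smallest that 70 arrangements of 4 against 4 arrays can give, and 0.0571 after Benjamini-Hochberg adjustment over the 6 pairs. None of the 6 pairs passed after that adjustment. In a limma fit of the same ratios beside all tested genes, chosen after these exact values were seen, 5 of the 6 passed, with adjusted p of 5.7e-08 for Relb over Rela, 2.4e-07 for Relb over Rel, 5.6e-04 for Map3k14 over Rel and 0.021 for each Nfkb2 pair.

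**Figure D3:**
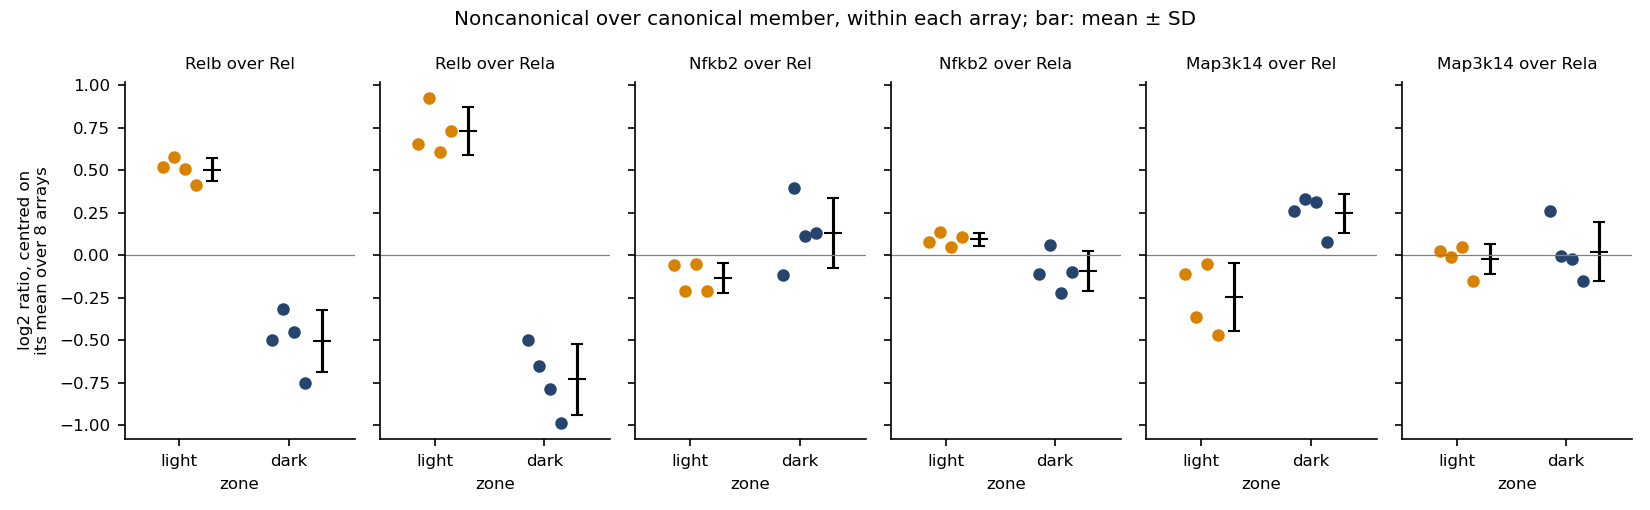
Log2 ratio of a noncanonical to a canonical member within each array, centred on the mean of that ratio over the 8 arrays, in light zone arrays (left, orange) and dark zone arrays (right, blue), with the mean and SD of each zone. The zones are apart for Relb over Rel, Relb over Rela and Map3k14 over Rel, the last with the light zone lower, and they overlap in the other 3 pairs.

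Other genes of the pathway were read from 7 lists, whose members were chosen with earlier results of these data known. Of 64 genes tested out of 78 listed, 37 were higher in the light zone, 6 were lower and 21 did not pass, with a median of 0.40 against 0.01 over all tested genes. The share higher was 57.8%, against 24.8% over all tested genes, of which 19.1% were lower. By list it ran from 38.5% for canonical signalling and 40% for receptors to 100% for IkB inhibitors. For 2 of the 37, Tlr7 and Ccnd2, the dark zone mean was below the level of the filter, so they were tested because of their light zone values and their differences are not exact. Among the genes named here and below, probe sets of the type _s_at stand for Nfkbia, Nfkbie, Cd40, Tbk1 and Gadd45b. Those of the type _x_at stand for Ccnd2 and Irak1. With both types left out where possible, 36 genes of the 7 lists were higher. All 6 IkB inhibitor family genes were higher in the light zone, by a median of 1.42, and 5 were higher with both types left out where possible. Nfkbid, a nuclear IkB protein, had 231, 257, 207 and 244 in the light zone arrays and 53.7, 70.7, 50.6 and 46.4 in the dark zone arrays, and its difference was 2.10. Nfkbia, which encodes IkBalpha and is a feedback target of NF-kB, was at 1.51, Nfkbie at 1.33 and Bcl3, a partner of p50 and p52 homodimers, at 1.83. The kappa B consensus was found in 4 of the 5 IkB inhibitor family genes with a promoter window. It was found in 6 of 22 listed targets, 3 of 7 genes of negative feedback and 3 of 12 of canonical signalling. The other lists had it in 1 of 5 genes of the NIK list, 1 of 4 of the IKK-related list and 0 of 8 receptors. Over all genes with a window the share was 9.55%. Among tested genes with a window it was 12.0% of those higher in the light zone, 11.1% of those lower and 12.3% of the rest.

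Upstream of the members, 4 of 10 tested receptor genes rose in the light zone and 6 did not pass. They were Cd40 (1.53), the Toll-like receptor gene Tlr7 (1.08, with a dark zone mean of 25.9, below the level of the filter), Tnfrsf13c, which encodes the BAFF receptor (0.56), and Tnfrsf1b (0.44). Ltbr and Tnfrsf11a were too dim to test. Of 13 genes of canonical signalling, 5 were higher, 2 were lower and 6 did not pass, with Prkcb, the kinase downstream of the B cell receptor, at 0.61, Rnf31 at 0.51 and Irak1 at 0.50. The 2 that fell were the protease gene Malt1 (-0.43) and Tab2 (-0.18), and the call of Tab2 was lost without light zone replicate 3 or 4 (limma adjusted p = 0.051 and 0.060).

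The list drawn up around the complex that degrades NIK in resting cells also takes in related genes, so its counts do not describe the complex alone. It held 5 tested genes, of which 3 were higher, 1 was lower and 1 did not pass. Traf3, the remaining gene of the 6 listed, had no probe set of the kind used here. The ubiquitin ligase genes Birc3 and Birc2 were at 1.05 and 0.40 and the adaptor gene Traf2 was at 0.30. Traf5 was lower in the light zone, at -0.74. Among 4 genes of IKK-related kinases and their adaptors, Ikbke (1.17) and Tank (0.75) were higher, while Tbk1 (-0.02) and Azi2 (-0.17) did not pass. The dark zone mean of Ikbke was 29.4, near the level of the filter. With the filter at the 70th percentile, 1 gene of this list was higher. Azi2 did pass, at -0.24, without light zone replicate 1 (limma adjusted p = 0.022). Of 7 genes of negative feedback, 4 were higher, led by Tnfaip3, which encodes A20 (1.53), with Tnip2 (0.77) and Zc3h12a (0.69). The dark zone mean of Tnip2 was 31.8, also near the level of the filter. With the filter at the 70th percentile, 2 genes of negative feedback were higher. Cyld, a deubiquitinase that restrains NF-kB, was lower in the light zone (-0.52).

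Of 19 tested genes listed as NF-kB targets, 13 were higher in the light zone, 2 were lower and 4 did not pass, with a median of 0.49. The largest differences were in the G1 cyclin gene Ccnd2 (3.74, with a dark zone mean of 27.6, just below the level of the filter), Myc (2.10), the transcription factor gene Irf4 (2.03) and the cytokine subunit gene Ebi3 (1.39), several of which respond to other pathways too. Gadd45b (-0.97) and Cd44 (-0.24) were lower in the light zone, and the zones did not overlap for the probe set that stands for Cd44. Without dark zone replicate 1 another Cd44 probe set became the brightest and gave -0.02 (limma adjusted p = 0.88), while the usual one gave -0.25.

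**Figure D4:**
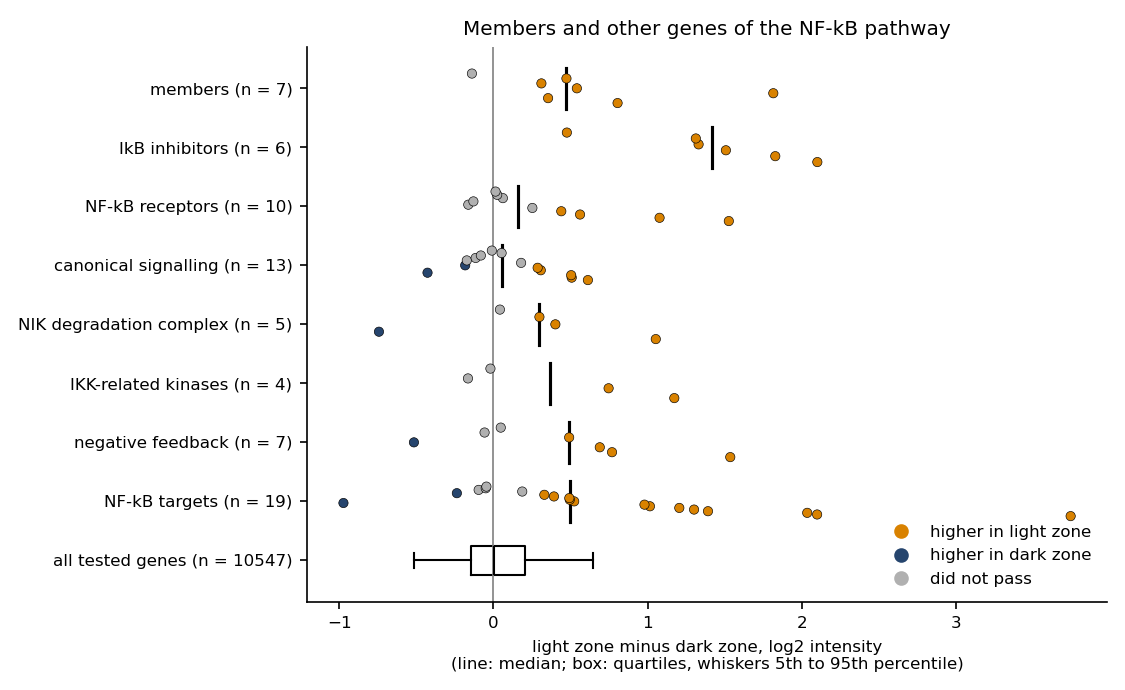
Difference between light zone and dark zone in log2 intensity for the 7 measured members and the tested genes of 7 pathway lists, one point a gene, orange where higher in the light zone, blue where higher in the dark zone and grey where limma's adjusted p did not pass. Black lines are medians, and the box shows the quartiles and the 5th to 95th percentile of all 10547 tested genes. All 6 IkB inhibitor genes lie to the right of 0, while canonical signalling genes lie on both sides.

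The genes closest to each member across the 8 arrays were found as the 3 tested genes with the smallest root mean square difference in log2 profile, after each profile was centred on its own mean. For Relb these were Gimap4 (0.09), Hapln1 (0.09) and Pkib (0.10), and for Rel they were Cad (0.06), Parp3 (0.07) and Itm2c (0.08). Rela was closest to Mlx (0.02), Clcn3 (0.03) and Fermt3 (0.03), and Nfkb2 to Ece2 (0.04), Atp5g1 (0.05) and Dnpep (0.05). The closest genes to Map3k14 were Nudt6, Ezh1 and Fam76b, those to Ikbkb were Lyl1, Slc35a1 and Rassf5, and those to Ikbkg were Tsfm, St8sia4 and Exo5. With 2 zones, such a profile mostly carries the size of the difference between them.

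Some genes listed as markers of other cells were not equal between the groups. The summed intensity of the 13 measured myeloid markers was 485 to 586 in light zone arrays and 532 to 1348 in dark zone arrays. Lyz2, which encodes a lysozyme, supplied most of the spread, with 43.0, 40.7, 37.7 and 89.1 in the light zone arrays and 128, 461, 466 and 824 in the dark zone arrays. Csf1r was lower and Cd68 higher in the light zone (-0.40 and 0.40), the call of Csf1r was lost without light zone replicate 1 or 2 (limma adjusted p = 0.066 and 0.051), and the other 10 measured markers did not pass or were too dim to test. Of 10 measured genes listed as T cell markers, 4 were bright enough to test. Cd2 was lower in the light zone (-0.70) and the other 3 did not pass. Among those 3, Cd3e averaged 38.4 in light zone and 37.0 in dark zone arrays. The summed intensity of the 10 was 562 to 613 in light zone and 689 to 875 in dark zone arrays. Cd2 supplied most of that gap, which was not shared across the list. Cd2 had 392, 339, 353 and 341 in the light zone arrays and 659, 649, 552 and 477 in the dark zone arrays. Among 7 plasma cell markers, summing to 15954 to 17645 in light zone and 17704 to 18717 in dark zone arrays, Irf4 was higher in the light zone and Mzb1 was lower (-0.29). Sdc1 did not pass, at 0.14, but did without light zone replicate 3, at 0.21 (limma adjusted p = 0.028). Without dark zone replicate 1 another Sdc1 probe set became the brightest and gave 0.53 (limma adjusted p = 0.0040). The usual Sdc1 probe set gave 0.16 there. Prdm1 averaged 45.4 in light zone and 17.6 in dark zone arrays, the second below the level of the filter, so that it was tested because of its light zone values. The call of Jchain, at -0.15, was lost whichever array was left out (limma adjusted p = 0.053 to 0.13). None of these markers was listed at 0, and their part in the members' differences was not tested.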

How the data were processed

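Total RNA of each sorted sample was labelled with a 3′ IVT kit and hybridised to 1 Affymetrix mouse array, per the labels' protocols. The deposited values are intensity values made by the authors with RMA, per the submitters' processing notes, on a linear scale, and the RMA version is not given in the sources used here. The lowest value was 5.63, so log2 was taken with no pseudocount. Quantile normalization of this kind hides a change in total RNA per cell.

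Of 45037 probe sets, 34945 (77.6%) carry 1 gene symbol, 932 several and 9160 are unnamed here. A gene was represented by its brightest probe set over all 8 arrays and tested if its mean was at or above the 50th percentile over probe sets, an intensity of 27.8. This left 10547 of 18193 genes. The number of arrays limits the precision. Zones were compared with limma 3.58.1, run under R 4.3.3 (default lmFit and eBayes, two-sided, Benjamini-Hochberg adjusted p under 0.05), over genes and again over all probe sets without a filter, and tested on simulated data. Ratios within arrays were compared by exact permutation with scipy 1.17.1. Figures were drawn with matplotlib 3.10.9.

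The members, lists and named genes were chosen with earlier results of these data known. Named genes are all members, the gate genes, up to 4 genes with the largest differences in each list, genes that moved against their list, the 3 closest profiles of each member, and called markers of other cells. Ltbr, Tnfrsf11a, Cd3e, Ms4a1, Bcl6 and Sdc1 fall outside this rule and were added after their values were seen. Traf3, which has no value, is also named outside it. Alternatives varied the filter, the probe set, the normalization, a pseudocount of 16, the threshold, the variance model, a block for the replicate number, array weights and which arrays were included. Background correction and scan batches could not be varied from these values.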

Additional observations from a re-analysis of the deposited data

Results flagged for a closer look

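One of the 48 groups of 4 values looked at held a value far from the others, and chance flags about 5% of groups. The brighter Nfkb2 probe set had 213 in light zone replicate 3, while the other 3 light zone arrays lay between 219.8 and 220.2. The dark zone arrays of that probe set lay between 142 and 160.4.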

How the results depend on the processing

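Rel, Rela, Relb and Nfkb2 were higher in the light zone and passed under each of the 11 other settings and each of the 8 fits without 1 array, from 0.75 to 0.87 for Rel, 0.33 to 0.38 for Rela, 1.64 to 1.88 for Relb and 0.50 to 1.14 for Nfkb2. Rel, Rela and Relb have 1 probe set each, so the settings that vary the probe set could not change their differences. With all probe sets of a gene averaged, Ikbkb and Map3k14 no longer passed, which left 4 members higher, and 1, Ikbkg, was lower. Without any 1 array, 6 members were higher and 0 lower. At an adjusted p under 0.01, 1889 genes were higher and 1316 lower in the light zone, and with each array centred on its median 2835 were higher and 1731 lower. Counts without 1 array were 2349 to 2522 higher and 1711 to 1910 lower over all genes, and 36 to 38 higher and 5 to 7 lower over the pathway lists.

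For the ratios, averaging probe sets or leaving out probe sets of the types _x_at and _s_at brought the adjusted exact p to 0.0429 for Relb over Rel (1.01 in both), Relb over Rela (1.46 in both), Nfkb2 over Rela (0.49 and 0.79) and Map3k14 over Rel (-0.66 and -0.49), because 4 pairs then had the smallest p. Nfkb2 over Rel turned to 0.037 and 0.34. The limma fit of the ratios was added after the data were seen, and it draws variances toward those of single genes. It passed for Relb over Rel (1.01), Relb over Rela (1.46), Nfkb2 over Rel (-0.26), Nfkb2 over Rela (0.19) and Map3k14 over Rel (-0.49). Without 1 array the ratios ranged from 0.93 to 1.07 for Relb over Rel, 1.37 to 1.54 for Relb over Rela, -0.35 to -0.18 for Nfkb2 over Rel, 0.14 to 0.24 for Nfkb2 over Rela, -0.56 to -0.42 for Map3k14 over Rel and -0.10 to 0.037 for Map3k14 over Rela, the last turning to 0.037 without dark zone replicate 1. Exact tests on fewer arrays cannot pass after adjustment.

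Same-numbered arrays deviated together at correlations of 0.13, 0.19, 0.06 and 0.24 over genes for numbers 1 to 4, against -0.15 to 0.091 for different numbers. Of the 8 arrays, 7 correlated best with the array of their own number, a hint from the data. Number 3 was not over 0.1 and no label ties the numbers to shared animals or days, so the numbers were not taken as pairs. With the replicate block, 2699 genes were higher and 2088 lower, 5192 and 4859 probe sets were higher and lower, and 6 members were higher. The replicate block left the ratios at the same values with no pair passing, since 4 pairs of arrays cannot.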
